A study of Homo sapiens with 27 samples.

Results

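In 786-O cells that carried the guide sgKDM5C #5 against *KDM5C*, *KDM5C* mRNA was lower than in control cells and many other mRNAs differed, some of them together with their neighbours on a chromosome. 786-O is an established human line of clear cell renal cell carcinoma (ccRCC) with a mutated *VHL* gene. The members are 6 of the 27 RNA-seq libraries of the series, 3 of cells with sgKDM5C #5 and 3 of cells with the non-targeting guide sgCtrl. Both groups were infected with lentiviral vectors that carry the guide and spCas9, and neither received a guide against *KDM5D*. The cells were infected populations and not single clones, so each sgKDM5C #5 library can hold edited and unedited cells. The p-values measure the spread between libraries of the same population, estimated over all 27 libraries and not the 6 alone. The labels do not say whether replicates were separate cultures, so that spread may be technical.

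KDM5C is an X-linked demethylase that removes methyl groups from lysine 4 of histone H3, a mark of promoters and enhancers, and it is a recurrently mutated tumour suppressor of ccRCC. KDM5D is its Y-linked paralog, and KDM5A and KDM5B are autosomal members of the family. Cancer cell populations can also differ by gains and losses of chromosome segments, which change the mRNA of many adjacent genes together. Genes that moved with their neighbours are therefore described apart from genes that moved on their own.

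The guides sgKDM5C #4 and #5 were directed at exon 8 of *KDM5C*, to mutate the first PHD domain of the protein. A PHD domain, or PHD finger, is a zinc-binding fold that reads histone tails. The exon is shown because it is the target of both guides compared here. In the GRCh37 annotation it is 159 bases of coding sequence on the minus strand, chrX:53243871-53244029. Capitals mark its 7 in-frame cysteine codons and 1 histidine codon, the residue types that bind zinc in a PHD finger.
KDM5C exon 8: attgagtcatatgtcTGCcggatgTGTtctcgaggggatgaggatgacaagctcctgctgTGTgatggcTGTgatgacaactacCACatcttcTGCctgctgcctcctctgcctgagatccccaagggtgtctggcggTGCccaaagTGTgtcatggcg

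The deposited values were counts per gene, with 21428739 to 34089021 counts in each of the 6 libraries, and the common biological coefficient of variation of the fit was 0.0973. Levels are given as CPM, counts scaled to a fixed library size with TMM factors. Markers of the line were present in sgCtrl, with *PAX8* at 292 ± 18.6 and *VIM* at 1816 ± 20.3 CPM (SD, n = 3). Of 12 leukocyte markers 2 passed the filter on low counts, with a summed level of at most 0.606 CPM in any of the 6 libraries. Of 8 endothelial and 9 fibroblast markers found among the counted genes, 3 of each passed, with at most 1.95 and 10.7 CPM, and *ENG* of the endothelial list was called lower (log2 fold change -1.74). On the leading component of the within-group variation sgCtrl replicates 1, 2 and 3 lay at -11.5, 16.6 and -5.12. Those of sgKDM5C #5 lay at -11.5, 12.3 and -0.832. Replicate 2 of both groups and 2 libraries of other populations had the highest values and are called the libraries that stood apart. Libraries at the low end, down to -11.5, were not set apart, although the smallest value set apart was 10.9. In sgKDM5C #5 replicates 2 and 3 were the closest pair by chi-square per degree of freedom (14.1, against 20.7 and 19.5 with replicate 1).

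*KDM5C* mRNA fell and the mRNA of its Y-linked paralog *KDM5D* rose. *KDM5C* (ENSG00000126012, chromosome X, 53205465 to 53254604) was at 132, 119 and 121 CPM in the sgCtrl libraries and at 36.9, 31.0 and 31.7 CPM in the sgKDM5C #5 libraries. The groups did not overlap, and the log2 fold change was -1.91 (standard error 0.08, adjusted p = 2.5e-15). The gene of the paralog *KDM5D* (ENSG00000012817, chromosome Y, 21865751 to 21906825) had 14.5, 11.4 and 12.5 CPM in sgCtrl and 47.7, 42.0 and 43.9 CPM in sgKDM5C #5, a log2 fold change of 1.8 (adjusted p = 1.6e-14). With sgKDM5C #4 *KDM5D* was also higher than in the same sgCtrl libraries (log2 fold change 1.15, adjusted p = 5.6e-11). *KDM5A* (log2 fold change 0.27, adjusted p = 0.0063) and *KDM5B* (0.11, adjusted p = 0.36) did not pass in sgKDM5C #5. Reads of close paralogs can be split by the counting, which makes the level of each uncertain.

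All 17016 genes that passed the filter were tested with edgeR (quasi-likelihood, p-values adjusted by Benjamini-Hochberg), and those past 1.5-fold with an adjusted p below 0.001 were called. In sgKDM5C #5 cells 346 genes were called higher (2.03% of the genes tested) and 505 lower (2.97%). The 3 libraries of each group did not overlap in any of these 851 genes. The calls were made from the same libraries, so this separation follows largely from the choice of genes. Of the higher genes 304 were protein-coding and 51 changed by over 4-fold, and of the lower genes 468 and 106. The median log2 fold change over all genes was 0.02. Fitting only the 6 libraries compared gave 108 higher and 160 lower genes, and leaving out the 4 libraries that stood apart gave 282 and 427.

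To set apart genes that moved with their neighbours, each gene was corrected by the median change of its 50 expressed neighbours along the chromosome and the test was repeated. After this removal 292 of 16527 genes were higher (1.77%) and 397 lower (2.4%). Of the 346 higher genes 271 (78.3%) were called before and after removal, 33 were lost inside a stretch of neighbours that moved the same way, 33 were lost elsewhere and 9 had no neighbour median. Of the 505 lower genes 362 (71.7%) were called both times, 109 (21.6%) were lost inside a stretch of that sign, 23 were lost elsewhere and 11 had no neighbour median. Another 21 higher and 35 lower genes were called only after removal. Genes called both times are said here to have changed on their own.

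The 12 largest increases among them included genes of enzymes and membrane proteins, and genes that had been at the limit of detection in sgCtrl. *CPNE7* (chromosome 16, 89642166 to 89663654), which encodes a calcium-dependent membrane-binding protein, was at 0.0433, 0.0343 and 0 CPM in sgCtrl and at 8.76, 6.46 and 5.41 CPM in sgKDM5C #5. From the summed counts of the 3 libraries this is 259-fold higher (71.5 to 2150), where the range in brackets is an exact 95% counting interval that leaves out the spread between libraries. In the same way *XK*, a membrane protein of red cells, was 43.6-fold higher (16.8 to 162), *CXCR4*, the receptor of the chemokine CXCL12, 17.4-fold higher (8.59 to 40.9), and the RING finger gene *RNF223* 55.2-fold higher (15 to 461). The myosin gene *MYH8* was 11-fold higher (4.81 to 30.9) and the non-coding *LINC02417* 17.4-fold higher (4.49 to 148).

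*PTGES*, the inducible enzyme that makes prostaglandin E2, was at 0.953, 0.514 and 1.16 CPM in sgCtrl and at 19.1, 15.1 and 12 CPM in sgKDM5C #5 (log2 fold change 4.14, standard error 0.24, adjusted p = 8.6e-13). *HS6ST2*, a heparan sulfate sulfotransferase, was at 0.477, 0.959 and 0.501 CPM against 11.3, 13.2 and 13.5 CPM (log2 fold change 4.26, adjusted p = 4.4e-13). *MAPK8IP2*, a scaffold protein of the JNK pathway, was at 2.64, 2.95 and 2.97 CPM against 34.3, 24.8 and 23.7 CPM (log2 fold change 3.26, adjusted p = 2.5e-15). In all of them the lowest sgKDM5C #5 library lay far above the highest sgCtrl library. *PCSK6*, a proprotein convertase, *NPPB*, which encodes a natriuretic peptide, and *MMP16*, a membrane-bound metalloproteinase, had log2 fold changes of 3.67, 3.45 and 3.12. *MAPK8IP2* and *PCSK6* overlap other expressed genes, and the strand setting of the counting is not given in the sources used here.

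The 12 largest decreases included genes close to absent in sgKDM5C #5. *FBLN2*, a protein of the extracellular matrix, was at 2.12, 1.78 and 2.12 CPM in sgCtrl and had no count in any sgKDM5C #5 library, which is at least 18.8-fold lower at a floor of 3 counts per library (0.107 CPM). *LEF1*, a transcription factor of the Wnt pathway, was at 2.51, 2.16 and 2.5 CPM against 0, 0.0590 and 0.0307 CPM, 69.6-fold lower (23.5 to 341). *BBS5*, a gene of ciliary trafficking, was at 2.38, 2.12 and 1.77 CPM against 0.0466, 0.0295 and 0.0615 CPM, 45.8-fold lower (17.5 to 170). *GBP4*, an interferon-induced GTPase, was 32.3-fold lower (12.3 to 121), *CSRNP3* 43.2-fold lower (11.6 to 364) and the non-coding *LINC03060* 22.5-fold lower (7.33 to 112). *CNTNAP3* was 49.4-fold lower (8.42 to 2000) and *FAM89A* 44.9-fold lower (7.61 to 1820), and *VWDE*, with no count in sgKDM5C #5, was at least 8.39-fold lower.

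*IGFBP4*, a secreted binding protein of insulin-like growth factors, was at 4.46, 4.83 and 5.05 CPM in sgCtrl and at 0.140, 0.0885 and 0.123 CPM in sgKDM5C #5 (log2 fold change -5.34, standard error 0.25, adjusted p = 1.9e-14). It lies in a lower stretch of chromosome 17, where its neighbours had a median of -0.24. *PNMA2*, a paraneoplastic antigen gene, and *SERPINB9*, an inhibitor of granzyme B, had log2 fold changes of -4.60 and -4.36 (adjusted p = 1.8e-07 and 8.2e-10). *PNMA2* overlaps *DPYSL2* and *BNIP3L*, whose reads can be shared with it.

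**Figure D1:**
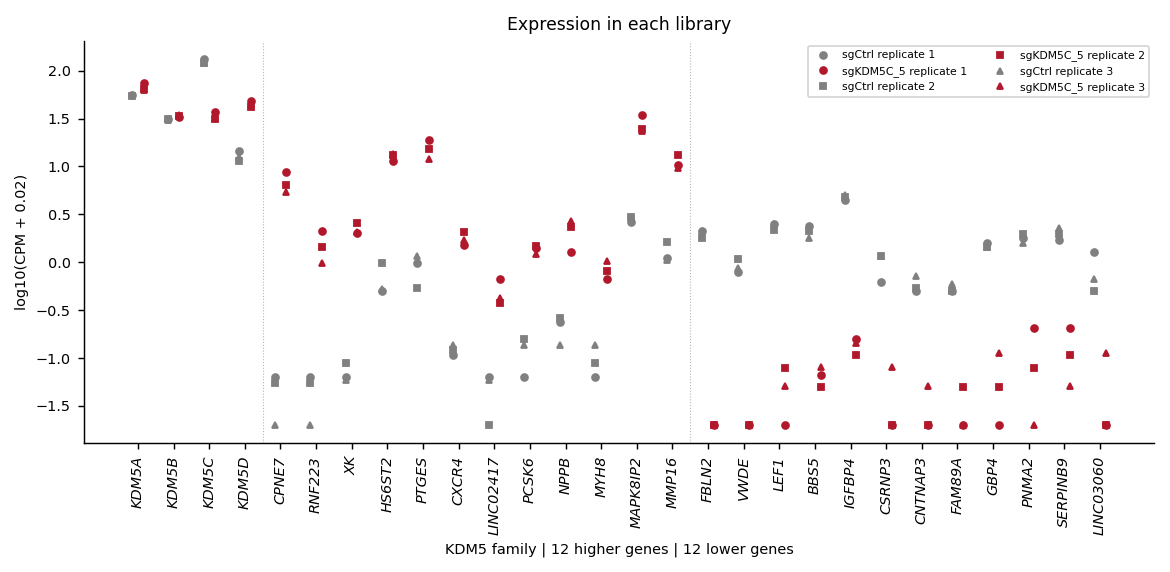
Expression of the KDM5 family and of the 12 higher and 12 lower genes, as log10(CPM + 0.02) on the y axis, in each of the 3 sgCtrl (grey) and 3 sgKDM5C #5 (red) libraries, with symbols for the replicate number. *KDM5C* lies at 119 to 132 CPM in sgCtrl and at 31.0 to 36.9 CPM in sgKDM5C #5. The 24 genes outside the family were chosen for their change and for no overlap between the groups.

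The called genes of the hypoxia response were all higher. This response is driven by the HIF transcription factors, which accumulate at low oxygen or, as in 786-O, without functional VHL. Of 38 tested members 10 were called higher and 0 lower, beside 2.03% and 2.97% of all genes. These shares stand beside the counts of every list below, and no list was tested as a whole. The median log2 fold change of the list was 0.19, against 0.02 over all genes, and 28 members were positive. *IGFBP1*, a secreted binding protein of insulin-like growth factors, was at 5.89, 5.82 and 6.01 CPM in sgCtrl and at 19.7, 21.2 and 18 CPM in sgKDM5C #5 (log2 fold change 1.73, standard error 0.10, adjusted p = 8.4e-13). *DTNA*, a dystrophin-associated protein, and *ANGPTL4*, a secreted inhibitor of lipoprotein lipase, had log2 fold changes of 1.87 and 1.79, beside *CXCR4* above. *SLC2A3*, *F3*, *IGFBP3*, *DPYSL4*, *STC2* and *PFKFB4* were the other called members, and of these only *PFKFB4* lost its call after neighbour removal. *EPAS1*, which encodes HIF-2alpha, had a log2 fold change of 0.50 (adjusted p = 0.0011) and was not called, and 0.69 (adjusted p = 4.3e-05) after removal. It was called higher without sgKDM5C #5 replicate 3 (0.63), and had 0.32 without sgKDM5C #5 replicate 1. Among 18 glycolysis genes, many of them HIF targets, 0 were called in either direction and the median was -0.01.

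The called genes of the interferon response were all lower. These genes encode antiviral and antigen-presenting proteins. Of 44 tested members 0 were called higher and 11 lower, beside 2.03% and 2.97% of all genes. The median was -0.39, against 0.02 over all genes, and 39 members were negative. With only the 6 libraries in the fit 5 were called lower. *OAS1*, an enzyme that activates antiviral RNA decay, was at 1.78, 2.53 and 2.31 CPM in sgCtrl and at 0.0932, 0.0885 and 0.184 CPM in sgKDM5C #5 (log2 fold change -4.10, standard error 0.30, adjusted p = 7.9e-11). *IFITM2*, a membrane protein that blocks viral entry, was at 17.9, 14.8 and 19.8 CPM against 3.03, 2.69 and 2.06 CPM (log2 fold change -2.77, adjusted p = 7e-14). *HERC5*, a ligase of the ubiquitin-like protein ISG15, was at 2.12, 2.23 and 2.31 CPM against 0.513, 0.384 and 0.307 CPM (log2 fold change -2.5, adjusted p = 1.4e-08).

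*OAS2* was 10.6-fold lower (4.22 to 34), but its call was lost without sgCtrl replicate 2 or sgKDM5C #5 replicate 2 or 3 (adjusted p up to 0.0013). *OAS1* and *OAS2* lie in a lower stretch of chromosome 12 with neighbour medians of -0.24 and -0.26, small beside their own changes. The other called members were *OASL*, *PSMB9*, *SAMD9L*, *IFIT1*, *IFI44*, *IFI35* and *IFIT2*, and of the 11 only *IFI35*, in the lower stretch of chromosome 17, lost its call after removal. *PSMB9*, a subunit of the immunoproteasome (log2 fold change -1.49), was the only called gene among 15 of MHC class I presentation, and it overlaps neighbouring genes of that pathway. *ISG15* (log2 fold change -0.10, adjusted p = 0.51) did not pass.

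Among chemokines and NF-kB targets 2 of 23 members were called higher and 4 lower. *IL11*, a cytokine of the IL-6 family, was at 7.76, 7.71 and 7.20 CPM in sgCtrl and at 19.1, 23.5 and 28.6 CPM in sgKDM5C #5 (log2 fold change 1.66, adjusted p = 6.5e-09). *CCL20*, a chemokine, had a log2 fold change of 1.64 (adjusted p = 3.6e-06). *CXCL16* (-1.36), *BIRC3* (-1.17), *CCL2* and *CSF1* were lower. The call of *CXCL16* was lost without sgCtrl replicate 1, 2 or 3 or sgKDM5C #5 replicate 3 (adjusted p up to 0.0061), and that of *BIRC3* without sgCtrl replicate 2 or sgKDM5C #5 replicate 1 or 3 (adjusted p up to 0.0019). *BIRC3* lies in the lower stretch of chromosome 11 and also lost its call after removal (-0.75, adjusted p = 0.012).

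Genes of epithelial junctions and cytokeratins were called in both directions, 3 of 26 higher and 6 lower, with a median of -0.33. With only the 6 libraries in the fit 3 were called lower. *EPCAM*, the epithelial cell adhesion molecule, was at 1.65, 2.26 and 1.77 CPM in sgCtrl and at 0.140, 0.148 and 0.0615 CPM in sgKDM5C #5 (log2 fold change -4.01, standard error 0.32, adjusted p = 3.1e-10). *PKP2*, a plaque protein of desmosomes, was at 6.98, 6.34 and 6.13 CPM against 0.466, 0.413 and 0.553 CPM (log2 fold change -3.75, adjusted p = 6.5e-12). *ESRP2*, *KRT19*, *KRT18* and *ST14* were lower as well, the last 2 of these lost with their stretches, and *JUP*, *SPINT2* and *DSC2* were higher. *ST14*, a membrane serine protease, was 14-fold lower (3.5 to 122), and its call was lost without any single library of the 6 (adjusted p up to 0.0043). *DSC2*, a desmosomal cadherin (log2 fold change 2.72), was lost after removal, and without sgCtrl replicate 1 or 2 or sgKDM5C #5 replicate 2 or 3 (adjusted p up to 0.012).

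Mesenchymal and matrix genes were also called both ways. Of 19 genes of the epithelial-mesenchymal transition 3 were higher and 1 lower. *FN1*, fibronectin, was at 4904, 4675 and 4902 CPM in sgCtrl and at 9615, 7950 and 8187 CPM in sgKDM5C #5 (log2 fold change 0.83, standard error 0.07, adjusted p = 3.4e-09). *SPARC*, a matrix glycoprotein, rose (0.78), and *TAGLN*, an actin-binding protein of smooth muscle, fell by 1.82 on the log2 scale. *MMP2*, a gelatinase (log2 fold change 0.63), was lost with its stretch, and without sgCtrl replicate 1, 2 or 3 or sgKDM5C #5 replicate 1 or 3 (adjusted p up to 0.016). Of 23 collagens 2 were higher and 2 lower. *COL12A1* rose (log2 fold change 1.42), and *COL4A5*, a basement membrane chain, and *COL5A2* fell by 2.28 and 1.46. *COL7A1* (0.73) was lost without sgCtrl replicate 3 or sgKDM5C #5 replicate 1 (adjusted p up to 0.0017). Of 25 integrins and laminins *ITGB8* was higher (1.07) and *ITGA3* lower, and *ITGB8* was lost without sgCtrl replicate 1 or 3 or sgKDM5C #5 replicate 2 (adjusted p up to 0.0033).

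Kidney lineage and tubule genes had 0 higher and 3 lower calls of 24, with a median of -0.01. *ANPEP*, the brush border aminopeptidase, was at 26.0, 23.8 and 27.7 CPM in sgCtrl and at 5.92, 4.75 and 4.77 CPM in sgKDM5C #5 (log2 fold change -2.34, standard error 0.12, adjusted p = 4.2e-14). *MME*, another brush border peptidase, fell by 1.32 and the transcription factor gene *FOXA2* by 1.01 on the log2 scale.

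Wnt signalling genes had 2 higher and 4 lower calls of 32. Beside *LEF1*, *RNF43*, a ligase that removes Wnt receptors, had no count in any sgKDM5C #5 library and was at least 2.92-fold lower, a call lost without sgCtrl replicate 2 or 3 or sgKDM5C #5 replicate 1, 2 or 3 (adjusted p up to 0.0022). The ligand genes *WNT7B* and *WNT3* were lower, and *WNT3* (-1.25) was lost with its stretch, and without sgCtrl replicate 1 or sgKDM5C #5 replicate 2 (adjusted p up to 0.0021). The receptor gene *FZD8* and the transcription factor gene *SP5* (1.20) were higher. *FZD8* lost its call after removal, outside a stretch of that direction (0.90 before and 0.84 after, adjusted p = 0.0013), and *SP5* was lost without sgCtrl replicate 1 or 3 or sgKDM5C #5 replicate 1 or 2 (adjusted p up to 0.0019). In the TGF-beta and BMP list 2 of 27 were higher and 0 lower. They were *LTBP1*, which binds latent TGF-beta (1.19), and the activin subunit gene *INHBA* (0.73), which was lost without sgCtrl replicate 3 or sgKDM5C #5 replicate 2 (adjusted p up to 0.0012).

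Neuronal genes, many of them targets of the repressor REST in other tissues, had 6 higher and 0 lower calls of 28, with a median of 0.27. *L1CAM*, an adhesion molecule of axons, was at 14.9, 15.9 and 13.1 CPM in sgCtrl and at 60.2, 42.8 and 41.5 CPM in sgKDM5C #5 (log2 fold change 1.72, standard error 0.15, adjusted p = 1.2e-09). *CELSR3*, an atypical cadherin, and *DPYSL4*, also in the hypoxia list, had log2 fold changes of 1.30 and 0.96, and *SLITRK2* and *NRCAM* were called too. *VGF*, a neuropeptide precursor gene (1.30), was lost without sgCtrl replicate 2 or 3 or sgKDM5C #5 replicate 1, 2 or 3 (adjusted p up to 0.0066). All 6 were also called after removal.

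Receptor tyrosine kinase genes had 1 higher and 3 lower calls of 21, with a median of -0.27. *PTK7*, a pseudokinase receptor of Wnt signalling, fell by 2.37 on the log2 scale, and *FGFR2* had 34.7 ± 1.90 CPM in sgCtrl and 18.9 ± 1.10 CPM in sgKDM5C #5 (SD, n = 3). *MERTK* (-0.71) was lost without sgCtrl replicate 1 or 3 or sgKDM5C #5 replicate 1, 2 or 3 (adjusted p up to 0.0097). *FGFR3* (0.63) was lost after removal, and without sgKDM5C #5 replicate 1, where its log2 fold change was 0.52. In the list of EGF family and MAPK feedback genes 1 of 24 was higher, *DUSP9* (1.04), a phosphatase of ERK, and 2 were lower. These were *DUSP6* (-0.87), another ERK phosphatase, and *PHLDA1* (-0.80), both lost after removal. *DUSP6* was also lost without any single library of the 6 (adjusted p up to 0.003), and *PHLDA1* without sgCtrl replicate 2 or sgKDM5C #5 replicate 1 or 3 (adjusted p up to 0.0044).

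*SLC40A1*, the iron exporter ferroportin and the only call among 24 NRF2, iron and ferroptosis genes, fell by 2.72 on the log2 scale. *PCDHB2* was the only call among 10 clustered protocadherins (-1.78), and *PTGES* among 13 genes of prostaglandin synthesis and response. No member was called in either direction among 39 cell cycle genes, 25 p53 targets, 20 immediate early genes, 28 genes of cholesterol and fatty acid synthesis and 13 mitochondrially encoded genes. Of 43 germline genes, a class that KDM5C represses in other tissues, 9 passed the filter on low counts and 0 were called. Their median was -0.45, against 0.02 over all genes, and 8 of the 9 were negative.

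**Figure D2:**
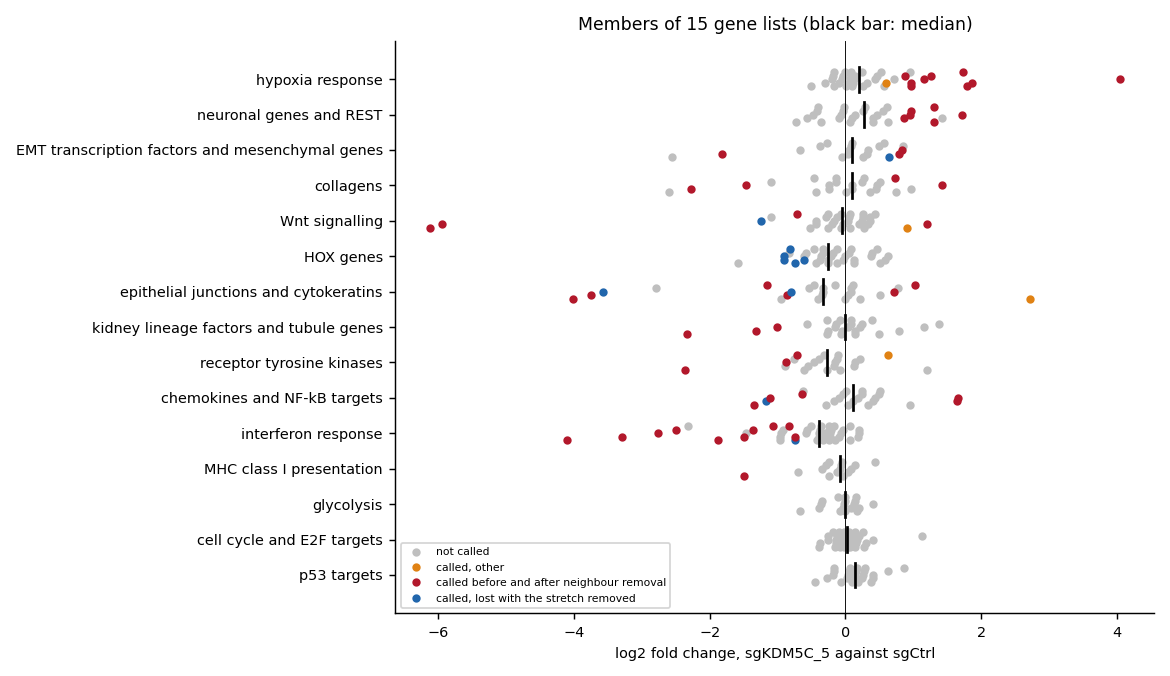
Log2 fold change of sgKDM5C #5 against sgCtrl for the tested members of the gene lists, 1 row a list, with colours for genes not called, genes called before and after neighbour removal, genes lost with their stretch and other called genes, and a bar at each median. The hypoxia list has 10 called genes to the right of 0 and 0 to the left, the interferon list 11 to the left and 0 to the right, and the 5 called *HOX* genes were all lost with their stretch.

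Neighbouring genes moved together in 17 stretches on 8 chromosomes. A stretch was at least 20 consecutive expressed genes whose neighbour medians had the same sign and were beyond 0.2 on the log2 scale, and its values are given as a description, with no test. The stretches held 1717 of 10596 expressed genes (16.2%), and 7 of them were higher and 10 lower. Outside them the median log2 fold change was 0.02, with quartiles of -0.10 and 0.15. With tested genes of lower expression included, the stretches held 2604 of 16527 genes and 226 of the 851 called genes. Of these 226 genes 203 moved with their stretch and 23 against it. Calls in the stretches below are likewise counted over all their tested genes. The medians of the 3 sgKDM5C #5 libraries were each set against the mean of sgCtrl. Those of the sgCtrl libraries were each set against the mean of the other sgCtrl libraries. In 15 of the 17 stretches these medians did not overlap between the groups. The stretches were chosen by their change in these same libraries, so this separation follows largely from the choice. The same holds for the 203 called genes against 23, and for the shares of genes with the sign of their stretch, given below. Other runs of genes were not counted in this way.

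**Figure D3:**
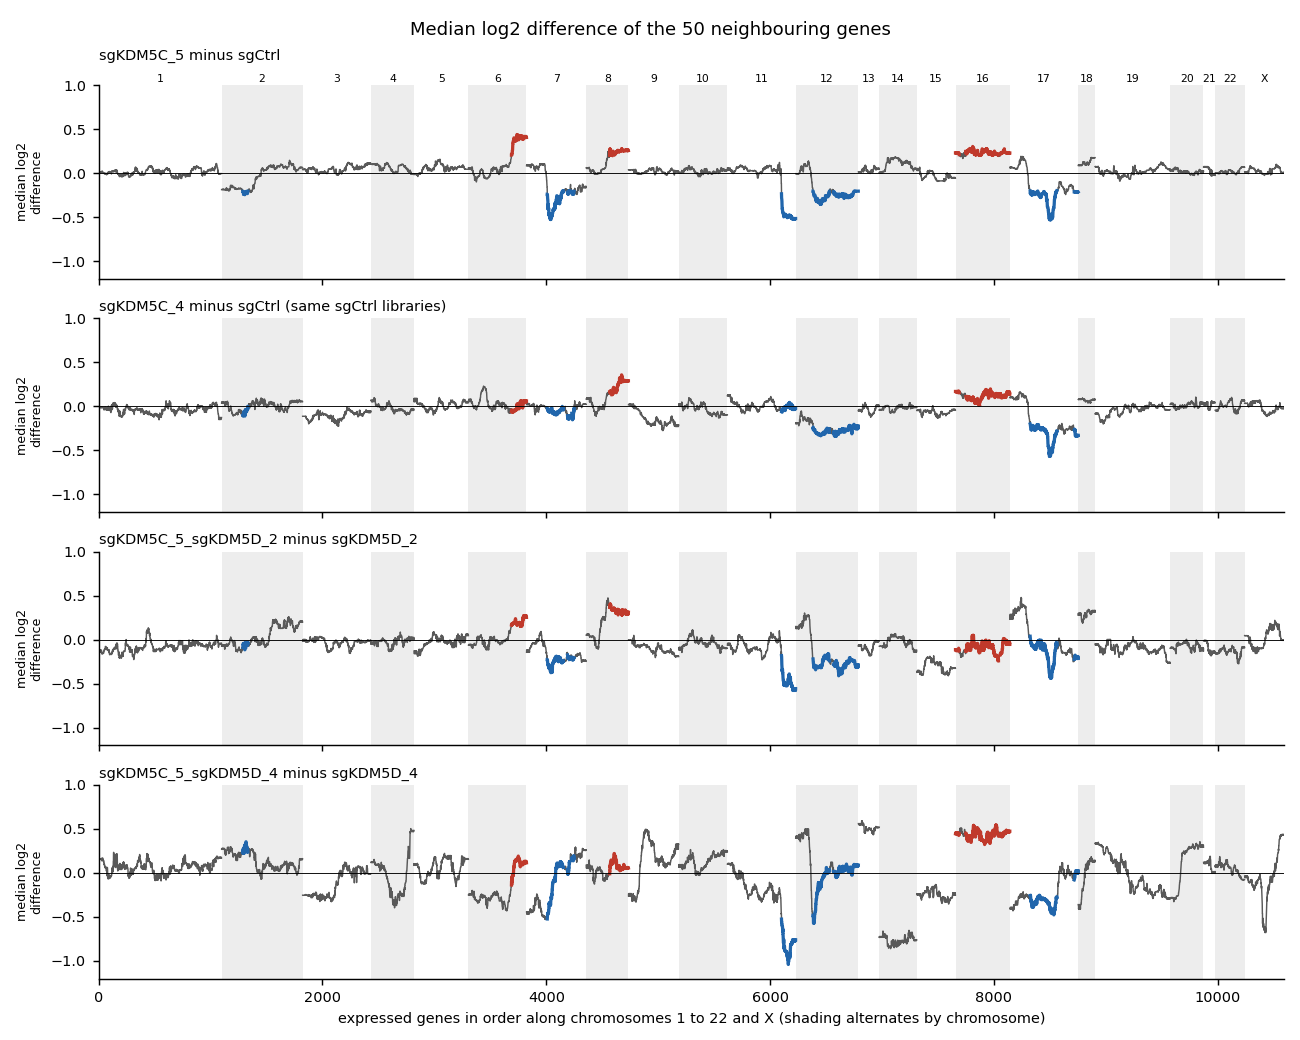
Median log2 difference of the 50 neighbouring expressed genes for genes in order along the chromosomes, in sgKDM5C #5 against sgCtrl, in sgKDM5C #4 against the same sgCtrl libraries, and in sgKDM5C #5 added to cells with sgKDM5D #2 or #4; the y axis is that median, the x axis counts expressed genes in order from chromosome 1 to 22 and X, and red and blue mark the higher and lower of the 17 stretches. In sgKDM5C #5 against sgCtrl the values run from -0.53 on chromosome 17 to 0.44 on chromosome 6, and the chromosome 11 stretch is low in all populations shown but sgKDM5C #4.

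The lowest stretch median was at the end of chromosome 11, chr11:94823010-134135749, which reached the last expressed gene of the chromosome. Over its 127 expressed genes the median log2 fold change was -0.49 (quartiles -0.66 and -0.38), and 116 (91.3%) were negative. The library medians were -0.54, -0.52 and -0.48 in sgKDM5C #5 and 0.01, -0.05 and 0.00 in sgCtrl. Of its 199 tested genes, expressed or lower, 49 were called lower, and 9 of these were also called after removal. *APLP2*, a membrane protein of the amyloid precursor family, was at 839, 752 and 897 CPM in sgCtrl and at 519, 454 and 472 CPM in sgKDM5C #5, a log2 fold change of -0.78 that was -0.27 after removal. *HSPA8*, a constitutive heat shock protein, was not called (-0.29, adjusted p = 0.14). The ribosomal protein gene *RPS25* (-0.61) was called, and lost without sgCtrl replicate 1 or 3 or sgKDM5C #5 replicate 1 or 2 (adjusted p up to 0.0075).

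Some genes of that stretch fell far beyond their neighbours, and 4 rose against them. *GRIK4*, a kainate receptor subunit, was at 3.16, 3.56 and 3.27 CPM in sgCtrl and at 0.233, 0.148 and 0.369 CPM in sgKDM5C #5, a log2 fold change of -3.22 after removal of a neighbour median of -0.50. *SORL1*, a sorting receptor, was 11.9-fold lower (5.99 to 26.7). The genes that rose were *POGLUT3*, *MTMR2*, *JRKL* and *CLMP*, named after their values were seen. *POGLUT3*, a glycosyltransferase, was at 5.42, 6.78 and 5.66 CPM in sgCtrl and at 21.5, 23.6 and 23.7 CPM in sgKDM5C #5, with log2 fold changes of 1.94 before and 2.41 after removal. *MTMR2* had a log2 fold change of 0.73. *JRKL* (0.66) fell under the fold threshold without sgCtrl replicate 1 (0.57), and *CLMP* (0.62) without sgCtrl replicate 3 or sgKDM5C #5 replicate 1 (as low as 0.57).

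The end of chromosome 6, chr6:116571127-170893780, moved up and also reached the last expressed gene. Over 135 expressed genes the median was 0.39 and 126 (93.3%) were positive, with library medians of 0.33, 0.43 and 0.40 in sgKDM5C #5 and -0.02, 0.03 and 0.00 in sgCtrl. Of its 211 tested genes 21 were called higher, and 2 of these were also called after removal. *IGF2R*, the mannose 6-phosphate receptor, was at 537, 483 and 511 CPM in sgCtrl and at 852, 715 and 725 CPM in sgKDM5C #5. Its log2 fold change of 0.58 was just under the fold threshold, which it passed without sgCtrl replicate 1 or sgKDM5C #5 replicate 2 or 3 (up to 0.61), and it was 0.18 after removal. *RPS12* and *EZR*, also among its most abundant genes, had log2 fold changes of 0.16 and 0.12 and did not pass. *UNC93A* rose beyond its neighbours (2.56, and 2.16 after removal). All 5 lower genes of the stretch were also called after removal, among them *VNN2*, an ectoenzyme, which was 31.5-fold lower (5.2 to 1290) but was lost without sgCtrl replicate 2 or 3 or sgKDM5C #5 replicate 1 or 3 (adjusted p up to 0.0023).

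On chromosome 7 the stretch chr7:56169266-100183752 moved down, with a median of -0.39 over 146 expressed genes, of which 139 (95.2%) were negative. The library medians were -0.43, -0.38 and -0.34 in sgKDM5C #5 and 0.02, -0.02 and -0.01 in sgCtrl. Among its 230 tested genes it held 27 lower calls, of which 9 remained after removal. *HSPB1*, a small heat shock protein, was at 1372, 1239 and 1267 CPM in sgCtrl and at 858, 879 and 955 CPM in sgKDM5C #5, a log2 fold change of -0.53 that was -0.08 after removal, and it was not called. *EIF4H*, a translation factor, had a log2 fold change of -0.40 before and 0.10 after removal, and the imprinted gene *PEG10* -0.19 before. Of the genes that remained, *STEAP2*, a metalloreductase, was 11.4-fold lower (5.51 to 27.2), and *PCLO*, a presynaptic protein, and *PDK4*, a kinase that inhibits pyruvate dehydrogenase, fell by 2.76 and 1.99 on the log2 scale.

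On chromosome 17 the stretch chr17:27051366-57292600 held 241 expressed genes with a median of -0.28, of which 222 (92.1%) were negative. Among its 370 tested genes it held 39 lower calls, of which 9 remained after removal. Its neighbour medians reached -0.53 around the *HOXB* cluster. *HOX* genes, which pattern the body axis, had 0 higher and 5 lower calls of 33, all 5 in this cluster and 0 of them called after removal. *HOXB2* was at 21.1, 21.5 and 19.2 CPM in sgCtrl and at 10.6, 12.3 and 12.1 CPM in sgKDM5C #5 (log2 fold change -0.81, adjusted p = 1.4e-07), and its log2 fold change after removal was -0.29 (adjusted p = 0.026). *HOXB6* (-0.91), *HOXB3* (-0.90), *HOXB8* (-0.74) and *HOXB9* were called before removal. *HOXB3* was lost without sgCtrl replicate 2 or sgKDM5C #5 replicate 2 or 3 (adjusted p up to 0.0044) and *HOXB8* without sgCtrl replicate 3 or sgKDM5C #5 replicate 2 (adjusted p up to 0.0017). Overlapping and antisense genes of the cluster can share reads.

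The same stretch held abundant genes of other lists. *ITGA3*, an integrin subunit, was at 1377, 1240 and 1300 CPM in sgCtrl and at 759, 658 and 693 CPM in sgKDM5C #5, with log2 fold changes of -0.89 before and -0.43 after removal. *ATP5MC1*, a subunit of the ATP synthase and the only call among 36 nuclear genes of oxidative phosphorylation, had a log2 fold change of -0.81 before and -0.29 after. *RPL19* (-0.26) and *CAVIN1* (-0.29) were not called. *RAD51C*, a DNA repair gene, was at 26.4, 23.3 and 28.0 CPM in sgCtrl and at 8.76, 8.76 and 9.84 CPM in sgKDM5C #5, and its log2 fold changes of -1.50 before and -1.30 after removal put it beyond its neighbours.

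Chromosome 12 held the lower stretches chr12:48147699-66360071 (148 expressed genes, median -0.30) and chr12:88427623-133791418 (221 expressed genes, median -0.23). Among 242 and 306 tested genes they held 17 and 13 lower calls, of which 6 and 7 remained after removal. The keratin genes *KRT8* (-0.54, called lower at -0.61 only without sgKDM5C #5 replicate 3) and *KRT18* (-0.80, and -0.47 after removal) lie in the former and overlap each other, so their reads can be shared. *TFCP2*, a transcription factor gene, fell by 3.72, *KRT81* by 2.90 and the integrin gene *ITGB7* by 2.75 on the log2 scale in the former, and *LINC01234* by 3.37 in the latter. *DDIT3*, a transcription factor of the stress response and the only call among 20 genes of that list, had a log2 fold change of -0.72 before and -0.46 after removal and was lost without sgKDM5C #5 replicate 2 or 3 (adjusted p up to 0.0011).

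Higher stretches with smaller medians covered most of chromosome 16, where 4 stretches held 410 of 486 expressed genes with medians of 0.23 to 0.24, and the end of chromosome 8 (chr8:97274130-146292071, 146 expressed genes, median 0.25). The chromosome 16 stretches, with 49, 199, 251 and 130 tested genes, held 20 higher calls. Of these 12 remained after removal, among them *CPNE7*, the antisense RNA *VPS9D1-AS1* (log2 fold change 2.52), *CARMIL2*, a regulator of actin capping (2.18), and *BMERB1* (2.0). *MT1F*, a metallothionein, had a log2 fold change of 0.68 before and 0.46 after removal and was lost without sgCtrl replicate 1 or 2 (adjusted p up to 0.0015). In this chromosome 8 stretch 7 of 216 tested genes were called higher and 1 of them remained, *CTHRC1*, a secreted collagen-related protein (1.25). The other stretches, on chromosomes 2, 7, 8 and 17, held 20 to 36 expressed genes each. *DYSF*, a membrane repair gene, and *ANTXR1*, an anthrax toxin receptor, fell by 3.07 and 1.0 on the log2 scale on chromosome 2, and *PRKAR2B*, a subunit of protein kinase A, by 2.89 on chromosome 7.

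**Figure D4:**
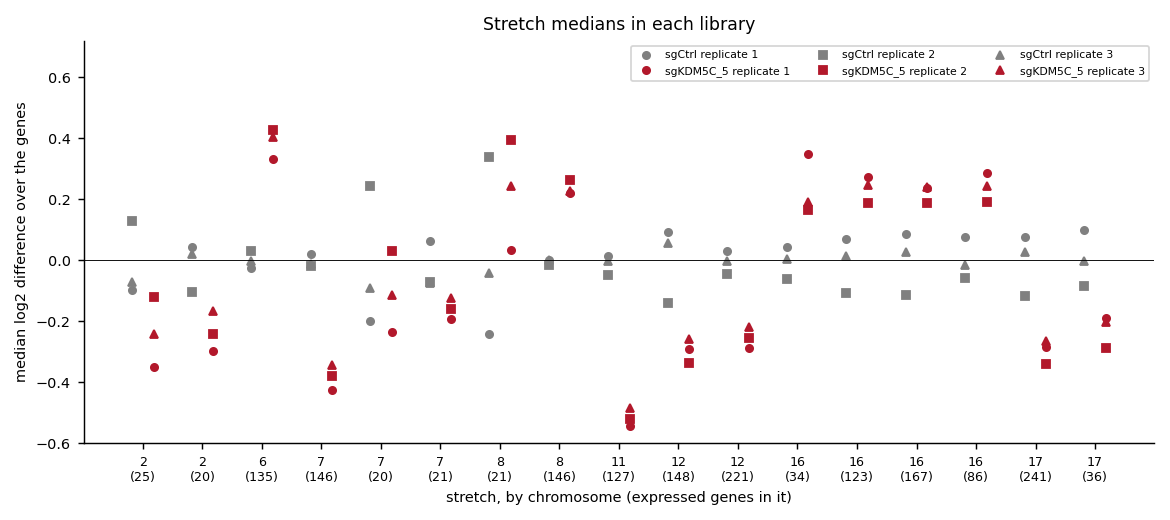
Median log2 difference over the expressed genes of each of the 17 stretches in each library, for sgKDM5C #5 libraries against the mean of sgCtrl and for sgCtrl libraries against the mean of the other two. The chromosome 11 stretch lies at -0.54 to -0.48 in the sgKDM5C #5 libraries and at -0.05 to 0.01 in the sgCtrl libraries. The groups overlap in the stretches of 20 genes on chromosome 7 and of 21 genes on chromosome 8. The stretches were chosen by their change in these same libraries, so the separation of the groups follows largely from the choice.

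Of 21 tested genes of the Y chromosome 6 were called higher and 0 lower. The Y chromosome was outside the neighbour analysis, and over its 13 expressed genes the median log2 fold change was 0.62. Beside *KDM5D* (1.8) the called genes were *NLGN4Y*, an adhesion molecule of synapses (1.12), *UTY*, a paralog of a histone demethylase (0.78), *PRKY* (0.74), the zinc finger gene *ZFY* (0.63) and the deubiquitinase gene *USP9Y* (0.63). *ZFY* was lost without sgCtrl replicate 1 or 3 or sgKDM5C #5 replicate 1 or 2 (adjusted p up to 0.0059), *PRKY* without sgCtrl replicate 1 or 3 or sgKDM5C #5 replicate 1 (adjusted p up to 0.006) and *USP9Y* without sgCtrl replicate 1 or 3 or sgKDM5C #5 replicate 2 (adjusted p up to 0.005). *RPS4Y1* was at 282 ± 36.1 CPM in sgCtrl and 386 ± 37.5 CPM in sgKDM5C #5 (SD, n = 3). Its log2 fold change of 0.45 was under the fold threshold, as were those of *DDX3Y* (0.50) and *EIF1AY* (0.43). Reads of these genes can be shared with their X-linked copies. In bulk RNA a change in the number of cells that express a gene and a change in its RNA per cell cannot be told apart.

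Cells that carried sgKDM5C #5 beside a sgKDM5D guide gave a comparison that shares no library with the one above. The libraries labelled sgKDM5C #5 with sgKDM5D #2 or #4 were compared with those labelled with the same sgKDM5D guide alone, and both differences were averaged. *KDM5C* was at 40.6 to 45.4 CPM and 33.3 to 35.9 CPM in the libraries with sgKDM5C #5, against 121 to 130 CPM and 112 to 123 CPM without it. Mean *KDM5D* mRNA was higher, not lower, in the libraries labelled with sgKDM5D #2 or #4 alone than in sgCtrl. The levels were 34.7 ± 2.38 and 19.9 ± 1.24 CPM against 12.8 ± 1.58 CPM (mean and SD, n = 3 each). Its mRNA level therefore gives no check of those labels. In these cells 1191 genes were higher (7%) and 1244 lower (7.31%), and *KDM5C* had a log2 difference of -1.64. Of the 346 genes higher in sgKDM5C #5 alone 162 (46.8%) were higher there and 28 were lower. Of the 505 lower genes 278 (55%) were lower there and 29 were higher. These are 13.6% of the higher and 22.3% of the lower calls in the sgKDM5D cells. Of genes that changed on their own 127 of 271 higher (46.9%) and 210 of 362 lower (58%) were called in the same direction, and of genes lost with a lower stretch 56 of 109 (51.4%).

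Among the named genes *CPNE7*, *NPPB*, *PTGES*, *CXCR4* and *IGFBP1* were also called higher in the sgKDM5D cells by the averaged difference. Mean levels of *CPNE7* were 0.105 CPM with sgKDM5D #2 alone and 8.81 CPM with sgKDM5C #5 added, and 0.0694 and 11.6 CPM with sgKDM5D #4. *NPPB* went from 0.0258 to 3.29 CPM and from 0.0292 to 4.96 CPM. With sgKDM5D #2 and #4 the log2 differences were 4.36 and 4.59 for *PTGES*, 3.95 and 3.58 for *CXCR4*, and 1.39 and 3.86 for *IGFBP1*.

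*LEF1*, *BBS5*, *ANPEP*, *PTK7*, *IGFBP4*, *EPCAM*, *HERC5* and *IFITM2* were also called lower, with values that were further apart beside sgKDM5D #4. With sgKDM5D #4 most of them started from a higher level and ended close to 0. *ANPEP* was at a mean of 47.4 CPM without and 19.3 CPM with sgKDM5C #5 beside sgKDM5D #2, and at 202 and 0.172 CPM beside sgKDM5D #4. *IGFBP4* was at 1.19 and 0.327 CPM, and at 27.8 and 0.174 CPM. *PTK7* was at 2.26 and 0.328 CPM, and at 56.1 and 0.334 CPM. *LEF1* was already low with sgKDM5D #2 (0.151 and 0.0140 CPM), where the summed counts were 11-fold lower (1.59 to 471), and was at 7.23 CPM against no count with sgKDM5D #4. *BBS5* was 51.8-fold lower (14 to 433) beside sgKDM5D #2 and 270-fold lower (48.1 to 10700) beside sgKDM5D #4 by summed counts, and *EPCAM* 8.63-fold lower (4.32 to 19.6) and 47.7-fold lower (20.2 to 148). The log2 differences were -2.40 and -4.56 for *HERC5* and -1.87 and -4.83 for *IFITM2*. Whether the sgKDM5D guides differ in these values was not tested.

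Other genes did not pass by the averaged difference, in which opposite values of the guides can cancel. With sgKDM5D #2 and #4 the log2 differences were 1.02 and -1.06 for *COL4A5*, 0.53 and -1.09 for *IL11*, -0.15 and -0.91 for *FN1*, 0.15 and -0.23 for *SPARC*, and -0.02 and 0.16 for *TAGLN*. *RNF223* and *CSRNP3* had too few counts in these libraries to detect a difference of moderate size, at means of 0.0260 to 0.0569 CPM and 0.0516 to 0.157 CPM. *PKP2* (0.94 and 1.35), *COL5A2* (0.13 and 1.05), *MMP2* (-0.43 and -4.16) and *CLMP* (-0.43 and -1.85) were called in the opposite direction. So was *COL12A1*, whose log2 differences were 0.92 with sgKDM5D #2 and -2.24 with sgKDM5D #4. The hypoxia list had 17 higher and 1 lower call in these cells (median 0.54), and the interferon list 2 higher and 17 lower (median -0.46).

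**Figure D5:**
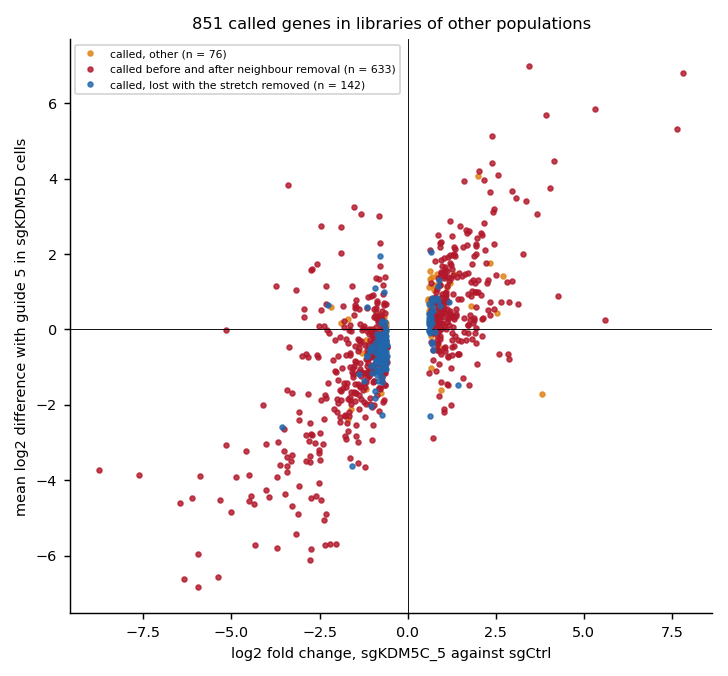
Log2 fold change of the 851 called genes in sgKDM5C #5 against sgCtrl, and their mean log2 difference when sgKDM5C #5 was added to sgKDM5D cells, in libraries that the comparisons do not share; colours mark 633 genes called before and after neighbour removal, 142 lost with their stretch and 76 others. Genes with few counts lie at fitted values that depend on how counts near 0 are treated. *PTGES* lies at 4.14 and 4.48, and 440 genes were called in the same direction in both comparisons.

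Some of the stretches had medians of the same sign in these cells. The end of chromosome 11 had medians of -0.51 with sgKDM5D #2 and -0.82 with sgKDM5D #4, and the chromosome 6 stretch of 0.19 and 0.11. The chromosome 7 stretch of 146 genes had -0.25 and -0.09, and the chromosome 17 stretch of 241 genes -0.13 and -0.35. The chromosome 16 stretches had -0.11 to -0.02 with sgKDM5D #2 and 0.43 to 0.46 with sgKDM5D #4. Medians of opposite sign were seen as well, -0.02 and 0.35 for the chromosome 2 stretch of 25 genes and -0.19 and 0.30 for the chromosome 7 stretch of 21. In all, 12 of 17 stretches had the same sign with each sgKDM5D guide, and 7 with both guides. Signs can also agree without a shared shift, and other runs of genes were not counted. The 17 are not separate segments, since 4 lie on chromosome 16 and others adjoin on chromosomes 2 and 8.

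The direct comparison of sgKDM5C #5 with sgKDM5C #4, which uses no sgCtrl library, shows which levels differed between the guides. *KDM5C* was not called between them (log2 difference -0.08, adjusted p = 0.57). With sgKDM5C #5 126 genes were higher (0.74%) and 506 lower (2.97%) than with sgKDM5C #4. Of the 346 genes higher than sgCtrl 60 (17.3%) were also higher than sgKDM5C #4, and of the 505 lower genes 197 (39%) were also lower, in comparisons that share the sgKDM5C #5 libraries. At the end of chromosome 11, 52 genes were lower than with sgKDM5C #4 and 0 higher, with a median difference of -0.48. The chromosome 6 and large chromosome 7 stretches had median differences of 0.39 and -0.30. The larger chromosome 12 and 17 stretches had median differences of 0.02 and 0.01, and the chromosome 8 stretch of 146 genes -0.04. Those of the chromosome 16 stretches were 0.04 to 0.14. Against the same sgCtrl libraries the medians of sgKDM5C #4 were -0.26 and -0.30 in these stretches of chromosomes 12 and 17, 0.27 in that of chromosome 8 and 0.08 to 0.20 on chromosome 16.

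*OAS1*, *OAS2*, *IFITM2*, *HERC5* and *PSMB9* were called lower with sgKDM5C #5 than with sgKDM5C #4, where their log2 fold changes against the same sgCtrl libraries were -0.52, -0.16, 0.52, 1.30 and 0.16. *EPCAM* and *PNMA2* were also lower than with sgKDM5C #4, where they had log2 fold changes of 2.13 and 1.60. The hypoxia genes *IGFBP1*, *CXCR4*, *DTNA* and *ANGPTL4* were not called between the guides, with log2 differences of 0.45, -0.29, -0.12 and 0.81. *L1CAM* (0.30), *FOXA2* (-0.14) and *COL4A5* (-0.21) were not called between the guides either.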

How the data were processed

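RNA-seq counts of 27 libraries of 786-O cells, 3 for each of 9 guide populations, were analysed, and 6 of them form the main comparison. The authors deposited raw counts per gene. The submitters' processing notes name Trimmomatic 0.38, STAR 2.5.2b and GRCh37, while the counting tool, its strand setting and annotation are not given in the sources used here. Of 57773 gene identifiers 55538 matched GRCh37 positions and symbols of the reference annotation. Exon 8 was read from the GRCh37 genome at the annotated coordinates.

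Genes with at least 120 counts over the 27 libraries were tested with edgeR 4.0.16 in R 4.3.3 (TMM factors, quasi-likelihood test, 1 mean per population, 18 residual degrees of freedom), so all populations share the estimate of the spread. Calls needed over 1.5-fold at an adjusted p below 0.001. Neighbour medians used 50 genes with an average log2 CPM above 2 on chromosomes 1 to 22 and X. They were 25 on each side in order of start position, at any distance, and at chromosome ends the window was shifted inward. The medians entered the offsets of the sgKDM5C #5 libraries for the second test. Scripts were tested on simulated data. Total counts of 21428739 to 34089021 set the precision of low genes, for which ratios of summed counts have exact 95% counting intervals (conditional binomial) and 3 counts per library served as the floor of groups without a count.

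Genes are named by a rule: the KDM5 family, the largest 12 increases and 12 decreases among genes called before and after removal with at least 10 counts in every library of the higher group, the 3 most abundant and up to 3 most changed members of each stretch, and up to 4 called members of each of 34 gene lists. The 12 increases and 12 decreases also had to show no overlap in level between the groups. Of the smaller stretches only some of the members chosen by the rule are named. Genes against the chromosome 11 stretch, genes of the Y chromosome and *EPAS1*, *ISG15* and *KRT8*, and called list members given without a value, were added after their values were seen. The members and lists were chosen with earlier results of these data known. Alternatives included RLE factors, other filters and thresholds, a replicate block, fewer libraries, other neighbour numbers and DESeq2 1.42.0. No column of the count table was left out. The values of 1 list member are not reported here.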

Additional observations from a re-analysis of the deposited data

Results flagged for a closer look

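The genes below differed between sgKDM5C #5 and sgKDM5C #4, guides to the same exon, by edgeR's quasi-likelihood test of the difference at the same thresholds (adjusted p under 0.001 and over 1.5-fold). This was the case for 54 of the genes named in the report. Values in brackets are log2 levels in sgKDM5C #5 minus sgKDM5C #4, and values of genes with few counts depend on how counts near 0 are fitted. *KDM5C* itself was not called between the guides.

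Interferon response genes were lower with sgKDM5C #5: *HERC5* (-3.80), *OAS1* (-3.59), *IFITM2* (-3.29), *OAS2* (-3.13) and *PSMB9* (-1.65). The interferon-induced *GBP4* (-4.43) was lower too. Genes of adhesion, surface and matrix proteins that were lower were *EPCAM* (-6.14), *FBLN2* (-5.85), *CNTNAP3* (-4.29), *ST14* (-3.69), *ITGB7* (-3.57), *PTK7* (-2.58), *ANPEP* (-1.53) and *ENG* (-1.41). *MMP2* (-1.32) was lower than with sgKDM5C #4 although it was called higher than in sgCtrl, as were *DUSP9* (-0.82) and *CLMP* (-0.62). Other genes lower with sgKDM5C #5 in the stretches were *IGFBP4* (-5.73), *TFCP2* (-4.56), *SORL1* (-4.34), *GRIK4* (-4.33), *PCLO* (-2.96), *DYSF* (-1.99), *LINC01234* (-1.98), *PRKAR2B* (-1.90), *APLP2* (-0.68) and *RAD51C* (-0.59). Outside stretches or beyond these groups *PNMA2* (-6.20), *BBS5* (-4.75), *SERPINB9* (-4.59) and *CXCL16* (-1.29) were lower. *FBLN2* and *DYSF* were also called lower with sgKDM5C #4 than in sgCtrl, with log2 fold changes of -2.91 and -1.09. *IGFBP4*, *CNTNAP3*, *GBP4*, *PCLO*, *BBS5* and *SERPINB9* were not called with sgKDM5C #4 against sgCtrl.

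Genes higher with sgKDM5C #5 were *RNF223* (5.33), *HS6ST2* (4.0), *XK* (3.05), *NPPB* (2.71), *MMP16* (2.19), *COL12A1* (1.16), *PTGES* (1.02), *IL11* (1.01) and *MAPK8IP2* (0.67). Genes of chromosome 16 among the higher ones were *CPNE7* (5.82), *BMERB1* (1.91), *CARMIL2* (1.82) and *VPS9D1-AS1* (1.06). Of the receptor genes *FGFR2* (0.95) was higher than with sgKDM5C #4 although it was lower than in sgCtrl, and *FGFR3* (0.96) was higher. All Y-linked genes named here but *PRKY* were higher: *NLGN4Y* (1.07), *EIF1AY* (0.94), *RPS4Y1* (0.89), *UTY* (0.78), *DDX3Y* (0.77), *USP9Y* (0.77), *KDM5D* (0.65) and *ZFY* (0.61).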

How the results depend on the processing

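The number of genes called depended most on how many libraries estimated the spread. With only the 6 libraries compared, 108 genes were higher and 160 lower, 102 and 120 after neighbour removal, 40 lost with their stretch, 5 interferon genes lower and 3 epithelial genes lower. At thresholds of 2-fold and an adjusted p of 0.05, 66 genes were lost with their stretch and 6 hypoxia genes were higher. Without a filter 192 genes were higher in sgKDM5C #5 than in sgKDM5C #4. The count of stretches was 27 with 20 neighbours, 10 with 100 and 5 at a threshold of 0.3. All other counts stayed within 1.5 times the reported ones, DESeq2 included (368 higher, 554 lower, with 1334 tested genes left without an adjusted p), and no result reversed. Leaving out single libraries gave 272 to 317 higher and 415 to 508 lower genes, 240 to 265 and 286 to 376 after removal, 16 to 19 stretches and 125 to 170 genes lost with them. The medians of 7 stretches moved by more than the spread between replicates and 0 changed sign: without sgCtrl replicate 2 they were -0.35 for the chromosome 7 stretch of 146 genes, -0.35 for 148 genes on chromosome 12, 0.19 for 167 on chromosome 16 and -0.32 for 241 on chromosome 17, and without sgKDM5C #5 replicate 1, 2 or 3 they were 0.22 for 146 genes on chromosome 8, -0.18 for 21 on chromosome 7 and -0.27 for 221 on chromosome 12. Of 129 genes named with values 67 kept their call, or stayed uncalled, in every alternative. Treating the 4 libraries that stood apart with a term of their own, an alternative chosen after seeing the data, gave 376 higher and 548 lower genes, and leaving them out 282 and 427. The replicate numbers do not pair the samples by the labels, and deviations of same-numbered libraries correlated by 0.326, 0.712 and 0.078, with 4 of the 6 closest to their own number in the other group. With the replicate number as a block 326 genes were higher and 478 lower, 272 and 369 after removal, with 15 stretches. At this depth genes with few counts give ratios with wide counting intervals, and only bounds where a group has no count.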
